A study of Mus musculus with 6 samples.

Results

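Antibody genes were present at low levels in all 6 RNA-seq libraries of this mouse leukemia, and in 2 of the 3 libraries labelled tamoxifen Igha and Igkc stood far above the rest. The set described here holds 9 genes of antibodies and of the B cell receptor: the immunoglobulin heavy chain constant genes Igha and Ighm, the light chain constant genes Igkc, Iglc1 and Iglc2, the joining chain gene Jchain, the plasma cell chaperone gene Mzb1, and the receptor signaling subunits Cd79a and Cd79b. They are 9 of the 53618 named rows of the deposited table. The set was chosen to judge how much RNA of antibody-producing cells the sorted cells carried, and it was picked because Igha was high in libraries tamoxifen 1 and tamoxifen 2. For that reason the levels of its members are described without a p-value.

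The study asked how loss of 1 allele of Usp18, a negative regulator of interferon signaling, changes established leukemia. Fetal liver cells carrying 1 floxed Usp18 allele (Usp18+/f) and UBCER-Cre, a tamoxifen-activated recombinase driven by the ubiquitin C promoter, had been made leukemic with a retrovirus expressing AML1-ETO9a (AE9a) and GFP, and they were transplanted into irradiated recipient mice. When the mice were sick, 3 received oil (Usp18+/f) and 3 received tamoxifen (labelled Usp18+/Δ), and GFP+Lin-c-Kit+ splenocytes were sorted 3 days after the first injection, each library coming from a separate mouse. Both groups carried the floxed allele, the recombinase, the AE9a retrovirus and GFP, and the drug reached the cells of the host as well as the leukemia cells. The antibodies of the lineage gate were listed for bone marrow and included B220, which is found on B cells, whereas plasma cells have little of it. Recipients irradiated below the lethal dose keep part of their own B lineage cells, which can make antibody in the spleen.

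Libraries held 19172471 to 23785143 reads, so that 3 reads, taken here as the floor of detection, corresponded to 2.69 to 3.83 normalized counts. Kit, on which the cells were sorted, was at 7512 to 8990 normalized counts in the oil libraries and at 4687 to 10976 in the tamoxifen libraries. Usp18 went against the label: it was at 217, 214 and 176 in oil and at 477, 329 and 284 in tamoxifen, so the groups are named here by their labels. A count over the whole gene need not show the loss of 1 allele. Library tamoxifen 1 stood apart, with a median correlation of 0.913 to the other libraries against 0.981 to 0.990 for the rest, with 0.00923% of its reads from mitochondrial genes against 1.01% to 1.56%, and with low counts for genes of low GC content. The log2 differences of the members as deposited are therefore also given without it.

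An antibody pairs heavy chains with kappa or lambda light chains, and the constant gene joined to the heavy chain sets its class. B cells first display IgM, whose heavy chain Ighm encodes, together with the signaling subunits encoded by Cd79a and Cd79b. When a B cell becomes a plasma cell it secretes antibody in bulk, and its messenger RNA is then dominated by immunoglobulin. IgA, whose heavy chain Igha encodes, is the class of mucosal surfaces, and Jchain encodes the peptide that links its units, and those of IgM, into polymers. All 9 genes are expressed in the B lineage, while acute myeloid leukemia cells do not make antibody as part of their myeloid program.

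Igha lies at chr12:113254830-113260236 on the minus strand of GRCm38, with 2668 bases of exon. Its normalized counts were 5.39, 12.5 and 7.43 in oil libraries 1, 2 and 3 and 313, 187 and 10.003 in tamoxifen libraries 1, 2 and 3. The reads behind these values numbered 6, 13 and 8 in oil and 245, 185 and 11 in tamoxifen. Libraries tamoxifen 1 and tamoxifen 2 were far above all others, whereas tamoxifen 3 lay within the range of the oil libraries, so the groups overlapped. The group means were 8.45 ± 3.68 (SD, n = 3) in oil and 170 ± 152 (SD, n = 3) in tamoxifen, the SD of the latter being nearly as large as its mean. On the scale of log2(normalized count + 1), the difference was 3.27 with a standard error of 1.54. It was 2.34 without tamoxifen 1, 2.71 without tamoxifen 2 and 4.75 without tamoxifen 3. Any of these still includes a library on which the set was picked.

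Igkc, the constant gene of the kappa light chain, lies at chr6:70726435-70726966 on the plus strand and has 532 bases of exon. It was at 28.7, 14.5 and 20.4 normalized counts in oil and at 139, 131 and 19.1 in tamoxifen. The same pair of libraries, tamoxifen 1 and tamoxifen 2, held the high values, and tamoxifen 3 again lay within the oil range. Its mean was 21.2 ± 7.17 (SD, n = 3) in oil and 96.6 ± 67.2 (SD, n = 3) in tamoxifen, a difference of 1.75 on the log2 scale with a standard error of 0.96. The difference was 1.27 without tamoxifen 1 and 2.67 without tamoxifen 3.

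Ighm, the heavy chain constant gene of IgM, lies at chr12:113418558-113422730 on the minus strand. Its normalized counts were 21.6, 3.86 and 20.4 in oil and 33.2, 46.5 and 34.6 in tamoxifen, from 24, 4 and 22 reads and from 26, 46 and 38 reads. Here all 3 tamoxifen libraries were above all 3 oil libraries, and tamoxifen 3, which had little Igha, had as much Ighm as tamoxifen 1. The mean was 15.3 ± 9.91 (SD, n = 3) in oil and 38.1 ± 7.29 (SD, n = 3) in tamoxifen. The difference on the log2 scale was 1.54 with a standard error of 0.74, it was 1.63 without tamoxifen 1, and it dropped to 0.81 when oil 2, with its 4 reads, was left out. Ighm and Igha therefore varied in different ways among the tamoxifen libraries.

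**Figure D1:**
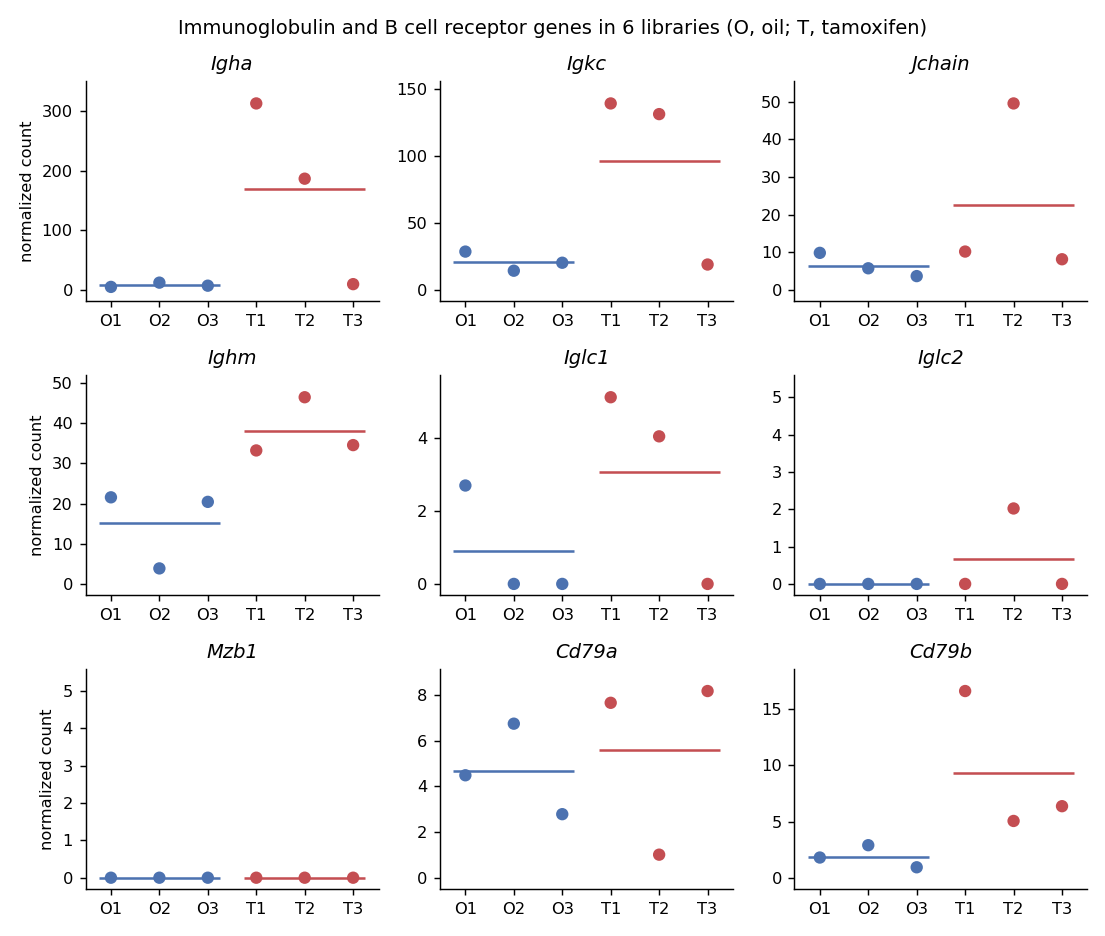
Normalized counts (y axis, a scale of its own in each panel) of the 9 genes in the 3 oil (O1 to O3, blue) and 3 tamoxifen (T1 to T3, red) libraries, each point 1 library and each line a group mean. Igha and Igkc are high in T1 and T2 alone, Jchain in T2 alone, Ighm and Cd79b in every tamoxifen library relative to every oil library, and Mzb1 is at 0 throughout.

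Jchain lies at chr5:88519809-88527891 on the minus strand. It was at 9.88, 5.79 and 3.71 normalized counts in oil and at 10.2, 49.5 and 8.18 in tamoxifen. Only library tamoxifen 2, with 49 reads, stood clear of the others as deposited, and tamoxifen 1, with 8 reads, was next to the highest oil library. The mean was 6.46 ± 3.14 (SD, n = 3) in oil and 22.6 ± 23.3 (SD, n = 3) in tamoxifen. The difference on the log2 scale was 1.30 with a standard error of 0.85, and it was 1.61 without tamoxifen 1 and 0.53 without tamoxifen 2.

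The GC content of the exons set Jchain apart from the other members. It was 38.2% for Jchain and between 48.2% and 54.9% for the other 8 genes. A smooth curve of each library's deviation against GC content over all tested genes put genes of the GC content of Jchain 1.87 log2 units too low in tamoxifen 1, whereas the shift there was 0.15 for Igha, -0.11 for Igkc and 0.38 for Cd79b. With the shifts taken out, Jchain came to 9.62, 5.52 and 3.65 normalized counts in oil and to 40.0, 47.5 and 8.01 in tamoxifen. Corrected this way, Jchain was high in the same pair of libraries as Igha and Igkc, and its log2 difference between groups was 1.93. The corrected value of tamoxifen 1 rests on 8 reads multiplied by the curve. Igha changed little in proportion, to 282 in tamoxifen 1 and 189 in tamoxifen 2.

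**Figure D2:**
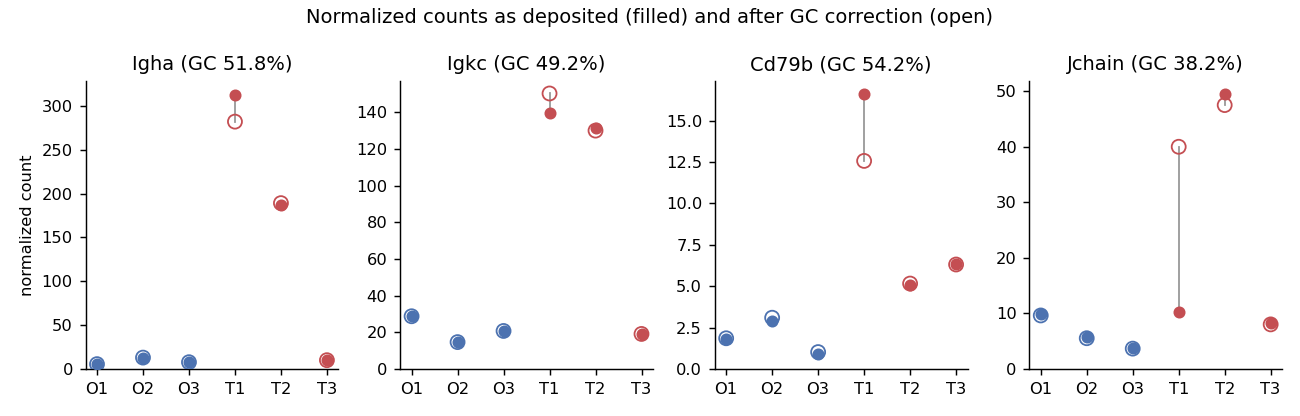
Normalized counts (y axis) of Igha, Igkc, Cd79b and Jchain in the oil (O1 to O3) and tamoxifen (T1 to T3) libraries, as deposited (filled points) and after correction for GC content (open points). The correction lifts Jchain in T1 from 10.2 to 40.0, close to T2, and changes the other 3 genes far less in proportion.

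The lambda light chain, encoded by the Iglc genes, is used by a small part of mouse antibodies. Iglc1 (chr16:19061618-19062071, minus strand) had 3, 0 and 0 reads in oil and 4, 4 and 0 reads in tamoxifen, and Iglc2 (chr16:19198396-19200351, minus strand) had 2 reads, both in tamoxifen 2. Of the related rows that are no members, Iglc3 had 1 read in tamoxifen 2, and Iglc4 was at 0 in every library. The first 120 coding bases of Iglc1, Iglc2 and Iglc3, from the GENCODE transcripts on GRCm38, are shown because they tell how far reads of these rows can be kept apart. They cover chr16:19061952-19062071, chr16:19198733-19198852 and chr16:19065562-19065681 on the minus strand, and capitals mark bases that differ from Iglc1.
Iglc1: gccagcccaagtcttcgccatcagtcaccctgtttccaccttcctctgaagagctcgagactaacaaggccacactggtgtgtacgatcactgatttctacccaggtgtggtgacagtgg
Iglc2: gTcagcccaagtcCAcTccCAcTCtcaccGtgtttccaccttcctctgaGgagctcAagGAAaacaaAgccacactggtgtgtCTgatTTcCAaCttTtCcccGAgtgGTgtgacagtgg
Iglc3: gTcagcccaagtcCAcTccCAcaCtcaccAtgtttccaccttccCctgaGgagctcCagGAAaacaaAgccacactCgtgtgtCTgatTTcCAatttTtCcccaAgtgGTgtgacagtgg
Over these 120 bases Iglc2 differed from Iglc1 at 28 positions and Iglc3 from Iglc2 at 7. Over the whole coding part, Iglc1 and Iglc2 were 73.4% identical with no shared run above 19 bases, so that most reads of this pair can be told apart. Iglc2 and Iglc3 were 96.2% identical with a shared run of 79 bases, and reads of this pair are uncertain. Together the lambda rows took 3 of 35 light chain constant reads in oil 1, 4 of 113 in tamoxifen 1 and 7 of 137 in tamoxifen 2. These are shares of 8.57% (exact 95% interval 1.80% to 23.1%), 3.54% (0.973% to 8.82%) and 5.11% (2.08% to 10.2%), which overlap. The other 3 libraries had no lambda read among 15 (oil 2), 22 (oil 3) and 21 (tamoxifen 3), which allows shares of up to 21.8%, 15.4% and 16.1% by the same intervals. Intervals and floors cover counting error only, since the reads carry no molecular identifiers.

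Cd79a and Cd79b encode the subunits that carry the signal of the B cell receptor. Cd79a was at 4.49, 6.75 and 2.79 normalized counts in oil and at 7.67, 1.01 and 8.18 in tamoxifen. The groups overlapped over their whole width, with the lowest value in tamoxifen 2, the library in which Igha was at 187. Cd79b had 2, 3 and 1 reads in oil and 13, 5 and 7 reads in tamoxifen, or 1.80, 2.89 and 0.929 against 16.6, 5.05 and 6.37 normalized counts. All oil libraries were at or under the floor of 3 reads and all tamoxifen libraries above it, so that the groups did not overlap. Summed over each group and scaled, the tamoxifen libraries held 4.68 times as many Cd79b reads as the oil libraries, with an exact 95% interval of 1.87 to 14.0 that covers counting error and not the spread between mice. The log2 difference was 1.74 with a standard error of 0.56, it was 1.27 without tamoxifen 1, and it was 0.99 with 5 in place of 1 added before taking logs. For Cd79a the log2 difference was -0.0034 with a standard error of 0.78, and it was -0.34 without tamoxifen 1 and 0.71 without tamoxifen 2.

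Mzb1, which encodes a chaperone of antibody assembly in the endoplasmic reticulum, was listed at 0 in all 6 libraries. A count of 0 allows up to 2.69 to 3.83 normalized counts in these libraries. In the GRCm38 annotation used here, 57.2% of its exon bases also belong to another gene on the same strand, and a counter that leaves out reads of overlapping genes would lose those. The annotation that the authors counted against is not given in the sources used here, so the 0 of Mzb1 is weak evidence of its absence.

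Per kilobase of exon, Igkc had the highest level of the set in both groups, at 39.9 ± 13.5 (SD, n = 3) normalized counts per kilobase in oil and 182 ± 126 in tamoxifen. In oil, Ighm followed at 8.10 ± 5.25 per kilobase, and Cd79a, Igha, Jchain, Iglc1 and Cd79b came next, between 3.21 and 1.31, with neighbours that did not differ beyond their SDs. In tamoxifen Igha was next to Igkc, at 63.7 ± 57.1 per kilobase, followed by Ighm at 20.2 ± 3.87, Jchain at 8.99 ± 9.25, Iglc1 at 6.72 ± 5.94 and Cd79b at 6.53 ± 4.42 and Cd79a at 3.86 ± 2.75. Most neighbours in this order did not differ by more than their SDs, and the place of Jchain rests on its value in tamoxifen 1 without correction for GC content. Iglc2 and Mzb1 were lowest in both groups. The rise of Igha in this order came from libraries tamoxifen 1 and tamoxifen 2, with 117 and 70.1 per kilobase, since tamoxifen 3 had 3.75.

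In bulk RNA, more cells of a type and more RNA per cell cannot be told apart, and this holds for every member. Of the 9 genes, 3 (Igha, Igkc and Ighm) passed the filter of 10 normalized counts in at least 3 libraries, and the other 6 did not. Igha passed it through 1 oil and 3 tamoxifen libraries, Ighm through 2 and 3, and Igkc through all 6. In limma with Benjamini-Hochberg adjustment 0.0% of the 12298 genes tested were called, these 3 included, and nothing is read from this about the members because the set was picked on the same contrast. Of the 7 members with a mean of at least 1 normalized count, 2 (Ighm and Cd79b) had every tamoxifen library above every oil library, a pattern that 8.15% of the 17668 genes at that level showed.

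**Figure D3:**
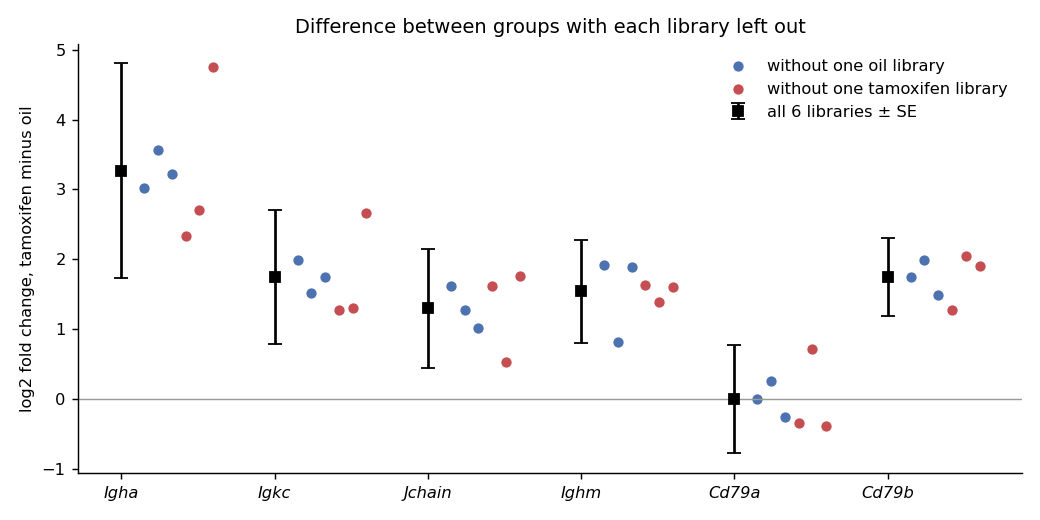
Difference between the tamoxifen and oil libraries on the log2(normalized count + 1) scale (y axis) for 6 members, from all 6 libraries (black squares, bars are standard errors) and with 1 oil (blue) or 1 tamoxifen (red) library left out, in the order 1 to 3. Igha ranges from 2.34 without tamoxifen 1 to 4.75 without tamoxifen 3, and Cd79a lies on both sides of 0.

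The heavy chain constant genes lie in a row on chromosome 12, and each cell transcribes mainly the class to which it has switched, so the shares of their reads describe the classes present. The shares are of reads, with no correction for the 2668 bases of exon of Igha and the 1886 of Ighm. Heavy chain constant rows together had 33, 18 and 31 reads in oil and 284, 239 and 61 reads in tamoxifen. Igha took 18.2% of them in oil 1 (exact 95% interval 6.98% to 35.5%), 72.2% in oil 2 (46.5% to 90.3%) and 25.8% in oil 3 (11.9% to 44.6%). In the tamoxifen libraries its share was 86.3% (81.7% to 90.0%), 77.4% (71.6% to 82.5%) and 18.0% (9.36% to 30.0%). Tamoxifen 1, tamoxifen 2 and oil 2 were thus mostly Igha, whereas the remaining libraries were mostly Ighm, so the split did not follow the groups. Ighm had a share of 72.7%, 22.2% and 71.0% in oil and of 9.15%, 19.2% and 62.3% in tamoxifen.

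The IgG classes, encoded by the Ighg rows, were a minor part, with 3, 1 and 1 reads in oil and 13, 8 and 12 in tamoxifen. Tamoxifen 3, with little Igha, thus had about as many IgG reads as tamoxifen 1. Ighg2c had no read in any oil library and 7, 0 and 9 reads in the tamoxifen libraries. Ighg3 had 0, 0 and 1 reads in oil and 4, 4 and 0 in tamoxifen, Ighg2b had at most 3 reads and Ighg1 at most 3 reads in any library. Ighd and Ighe, the genes of IgD and IgE, were at 0 in every library. Ighg2c thus made up 7 of 13 IgG reads in tamoxifen 1 and 9 of 12 in tamoxifen 3 but none of the 8 in tamoxifen 2. These rows are similar in sequence, so their single counts are uncertain.

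**Figure D4:**
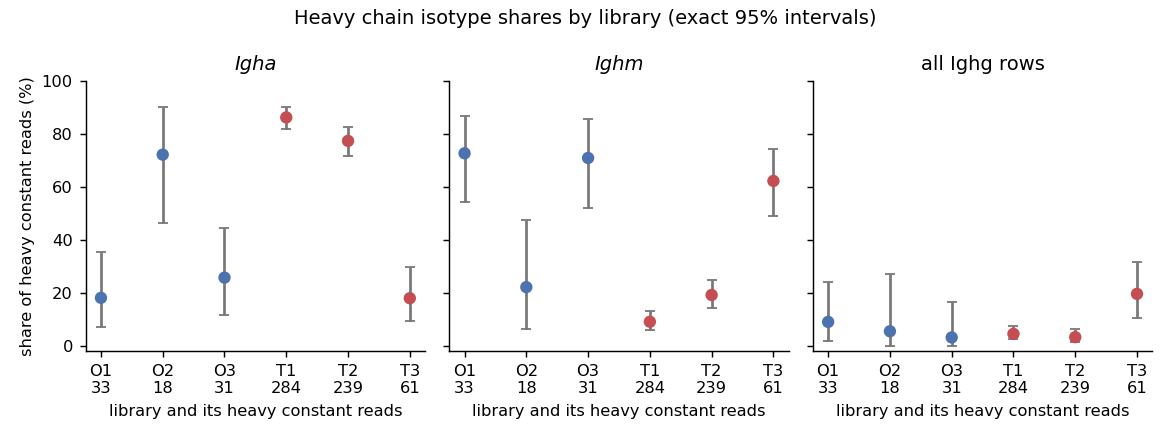
Share of heavy chain constant reads (y axis, %) taken by Igha, Ighm and all Ighg rows in each library, with exact 95% intervals, and under each library the number of reads shared out. T1, T2 and O2 are mostly Igha, at 86.3%, 77.4% and 72.2%, whereas O1, O3 and T3 are mostly Ighm.

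Igha was counted 18.8, 86.7 and 36.4 times per 100 Igkc reads in oil and 225, 142 and 52.4 times in tamoxifen. Relative to Igha, Jchain had 183, 46.2 and 50.0 reads per 100 in oil and 3.27, 26.5 and 81.8 in tamoxifen. Within a library these ratios do not depend on the size factor, though they do depend on gene length and, in tamoxifen 1, on GC content. Relative to Igkc, Jchain was at 34.4, 40.0 and 18.2 reads per 100 in oil and at 7.34, 37.7 and 42.9 in tamoxifen, and the value of tamoxifen 1 came to 26.6 once both genes were corrected for GC content, within the corrected oil range of 17.6 to 37.8.

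Variable segments, which each B cell joins in its own combination, show how mixed the antibody RNA was. The table had 348 rows for them, 185 Ighv, 160 Igkv and 3 Iglv, of which 101 had a read in any library. Ighv rows held 27, 5 and 17 reads in oil and 29, 92 and 21 in tamoxifen. Counted from 1 read, these were spread over 17, 3 and 9 segments in oil and 12, 37 and 14 in tamoxifen. With 3 or more reads, only 2, 1 and 3 Ighv segments were left in oil and 4, 10 and 1 in tamoxifen. Igkv rows held 7, 8 and 7 reads in oil and 35, 118 and 14 in tamoxifen. Counted from 1 read, these were in 5, 7 and 6 segments in oil and 13, 34 and 9 in tamoxifen. With 3 or more reads, no Igkv segment was left in oil, and 5, 12 and 1 were left in tamoxifen. Iglv rows had reads in tamoxifen 2 only, 12 in all, of which 10 were of Iglv1. No single segment held most of the reads of its chain in tamoxifen 1 or tamoxifen 2, apart from Iglv1 in the latter.

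The most read kappa segment was the same in both high libraries. Igkv1-110 (chr6:68270485-68271267, plus strand) took 8 of 35 Igkv reads in tamoxifen 1, a share of 22.9% (exact 95% interval 10.4% to 40.1%), and 22 of 118 in tamoxifen 2, a share of 18.6% (12.1% to 26.9%). It had 2 reads in tamoxifen 3 and none in oil. Its last 120 germline bases, which run up to the joining site, are shown with those of Igkv1-117, the kappa segment closest to it in sequence, because reads of such a pair could be swapped. They lie at chr6:68271148-68271267 and chr6:68121708-68121827 on the plus strand, and capitals mark the bases at which they differ.
Igkv1-110: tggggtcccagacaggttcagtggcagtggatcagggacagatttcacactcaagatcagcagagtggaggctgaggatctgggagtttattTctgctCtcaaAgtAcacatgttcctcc
Igkv1-117: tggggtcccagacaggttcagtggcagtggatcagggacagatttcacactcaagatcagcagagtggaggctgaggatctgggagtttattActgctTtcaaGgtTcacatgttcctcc
They differed at 4 of these 120 bases, all near the joining site, and were 96.7% identical over their last 300 bases. Igkv1-117 itself had 1 read in oil 3 and 2 in tamoxifen 2. Reads away from the joining end cannot always be given to either of them, so the counts of single segments are uncertain, whereas sums over a chain are less so.

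Among heavy chain segments, Ighv3-6 (chr12:114288152-114288582, minus strand) led tamoxifen 2 with 11 of 92 reads, a share of 12.0% (exact 95% interval 6.12% to 20.4%). It had 1 read in oil 1 and none in tamoxifen 1, where the leading segment, tied with another, had 5 of 29 reads. In the other libraries the top heavy segments were Ighv7-3 with 5 reads in oil 1, Ighv2-5 with 3 in oil 2, and Ighv1-72 with 3 in tamoxifen 3, while 3 segments tied at 3 reads in oil 3, all counts too small to rank. In all, 25 segments had a read in tamoxifen 1 and 74 in tamoxifen 2. Of these, 17 had one in both, which is 68.0% of the former and 23.0% of the latter. A further 40 segments were read in tamoxifen 2 and no other library. All of these counts take 1 read as presence. With 3 or more reads, tamoxifen 1 kept 4 Ighv and 5 Igkv segments, and tamoxifen 2 kept 10 Ighv, 12 Igkv and 1 Iglv. No overlap is given at that level. Per 100 heavy chain constant reads, Ighv rows had 10.2 reads in tamoxifen 1, 38.5 in tamoxifen 2 and 34.4 in tamoxifen 3, against 27.8 to 81.8 in oil, so that tamoxifen 1 alone was below the oil range. Tamoxifen 1 had more Igha than tamoxifen 2 and fewer variable segment reads.

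**Figure D5:**
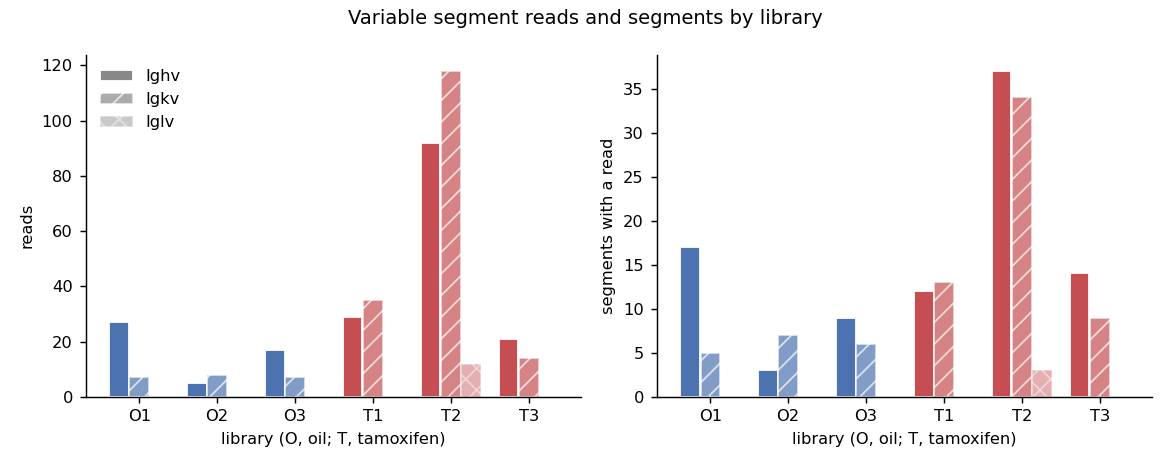
Reads (left) and number of segments with a read (right) of the Ighv, Igkv and Iglv rows in the oil (O1 to O3, blue) and tamoxifen (T1 to T3, red) libraries. T2 holds the most of both, with 92 Ighv reads over 37 segments and 118 Igkv reads over 34, and Iglv bars appear in T2 alone.

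Several genes that define B cells were at or near 0, while a few others of the list lay above the floor. Of 18 B cell genes listed, Ms4a1, Cd22, Blk, Fcmr and Ighd had no read in any library, and Pax5, the transcription factor that keeps B cell identity, had at most 1. Summed over the list, normalized counts were 178 to 240 in oil and 79.2 to 206 in tamoxifen, mostly from Blnk, an adaptor of B cell receptor signaling, at 140, 178 and 214 in oil and 43.5, 144 and 143 in tamoxifen. Tnfrsf13c, the receptor for the B cell survival factor BAFF, was at 8.08, 7.72 and 4.64 in oil and at 12.8, 13.1 and 22.7 in tamoxifen. All tamoxifen libraries were above all oil libraries, as for 8.15% of the 17668 genes with a mean of at least 1 normalized count. Its highest value was in tamoxifen 3, where Igha was within the oil range. Cr2, a complement receptor, was at 8.98, 11.6 and 7.43 in oil and at 0, 18.2 and 15.5 in tamoxifen, and Fcrla at 4.64 to 10.8 in oil and 7.67 to 14.1 in tamoxifen. Neither of these followed Igha, which was highest in tamoxifen 1. Ptprc, the gene of the leukocyte antigen CD45 and of its form B220, was looked at after the values were seen, and it had only 1, 4 and 1 reads in oil and 3, 8 and 8 in tamoxifen. Since leukocytes express it broadly, a row at or near 0 in this table, also of the plasma cell genes, is weak evidence that the gene was silent. Of 7 early B cell genes, none passed the filter. In tamoxifen 1 and tamoxifen 2, which had 245 and 185 reads of Igha, Ms4a1 and Pax5 had none.

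Among 18 plasma cell genes, Tnfrsf17, a survival receptor of these cells, had no read, and the transcription factors Prdm1 and Irf4 had at most 1 read in any library. Sdc1, the surface marker CD138, was at 3.59, 5.79 and 6.50 normalized counts in oil and at 21.7, 4.04 and 10.003 in tamoxifen. It was above the oil range in tamoxifen 1 and tamoxifen 3 and within it in tamoxifen 2. Xbp1, the transcription factor of the secretory program, was abundant in every library, at 1908, 2159 and 2168 in oil and at 3968, 2318 and 2240 in tamoxifen. Fkbp11, a folding enzyme, was at 6.29, 4.82 and 7.43 in oil and at 21.7, 19.2 and 10.9 in tamoxifen, with its highest values in the libraries high in Igha. Bhlha15, a transcription factor of secretory cells, was at 16.2, 42.4 and 48.3 in oil and at 79.2, 73.8 and 70.9 in tamoxifen. Other genes of the list were low in tamoxifen 1. Ell2, an elongation factor, was at 3696, 3608 and 3186 in oil and at 1002, 3294 and 3199 in tamoxifen. Sec11c, a signal peptidase subunit, was at 3478, 3566 and 3751 in oil and at 1134, 3219 and 2943 in tamoxifen. Both were lowest in tamoxifen 1, the library with the most Igha, as was Tnfrsf13b, a receptor of BAFF family ligands, at 1228 against 1484 or more in the others. Of the 10 plasma cell genes that passed the filter, 6 were higher and 4 lower in tamoxifen, and 0 were called. Fkbp11 was thus clearly highest in tamoxifen 1 and tamoxifen 2. For Xbp1 and Bhlha15 tamoxifen 3, at 2240 and 70.9, was close to tamoxifen 2, at 2318 and 73.8, so they did not share the pattern of Igha. Ell2, Sec11c and Tnfrsf13b were lowest in tamoxifen 1, whereas Tnfrsf17, Prdm1 and Irf4 were at or under 1 read. No cell type is named here as the source of the antibody reads.

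In a test of the genes around the set, limma called 0 of 34, beside 0 of all 12298 genes tested. The 6 lists of B lineage genes, without the members, held 72 genes of the table, of which 34 passed the filter. Their median log2 difference was 0.04, with 19 higher and 15 lower, beside -0.02 for all 12298 genes tested. At an unadjusted p under 0.05 there were 5 of the 34 (Tnfrsf13c, Fkbp11, Bhlha15, Syk and Plcg2) and 550 of all genes. On whole reads, edgeR called 0 of 34 listed genes beside 0 of 12340, and DESeq2 called 0 of 43 beside 71 of 15444. Without tamoxifen 1, limma called 0 of 34 beside 41 of 12298. With so few calls over all genes, nothing is read from these counts about the lists. By list, 0 of 4 B cell, 0 of 10 plasma cell, 0 of 12 endoplasmic reticulum and 0 of 9 receptor signaling genes were called, with Blnk counted on both the first and the last. The endoplasmic reticulum genes, which fold and export proteins, were 5 higher and 7 lower, among them Hspa5, the chaperone BiP, at 8871 to 13241 in oil and 9349 to 18426 in tamoxifen. The kinases and adaptors of receptor signaling, such as Lyn, Btk and Vav1, were abundant in all libraries, and Inpp5d, a lipid phosphatase, was at 11246 or more. Syk was at 372, 322 and 277 in oil and at 475, 401 and 520 in tamoxifen, and Plcg2, the phospholipase downstream of it, at 77.2, 35.7 and 55.7 and at 138, 80.8 and 116, and neither passed the adjusted threshold. These are genes that myeloid cells use as well.

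Marker genes of other spleen cells were summed in each library, and limma called none of those that passed the filter. The 10 macrophage genes summed to 226, 85.9 and 91.9 normalized counts in oil and to 304, 355 and 252 in tamoxifen. All 7 that passed the filter were higher in tamoxifen, of which 4 had an unadjusted p under 0.05 in limma. Of all 12298 genes tested, 5958 were higher in tamoxifen and 550 had an unadjusted p under 0.05, in either direction. The 8 neutrophil genes summed to 14.4, 27.0 and 19.5 in oil and to 62.6, 67.7 and 40.0 in tamoxifen, with Ly6g at 0. The single neutrophil gene that passed the filter, Mmp8, had the opposite sign, at 8.98, 19.3 and 13.0 in oil and at 0, 8.08 and 13.6 in tamoxifen. Both sums were higher in all 3 tamoxifen libraries and lowest, among these, in tamoxifen 3, where Igha was within the oil range. Some single genes of these lists came closer to the pattern of Igha, and others did not. Ngp, of neutrophil granules, was at 0, 0 and 1.86 in oil and at 19.2, 17.2 and 3.64 in tamoxifen. C1qa, a complement gene of macrophages, was at 16.2, 11.6 and 13.9 in oil and at 60.1, 44.5 and 18.2 in tamoxifen. By contrast, Mrc1, also of the macrophage list, was at 37.7, 12.5 and 8.36 in oil and at 17.9, 38.4 and 36.4 in tamoxifen. Vcam1, of the same list, was likewise lower in tamoxifen 1 than in oil 1, at 24.3 and 55.7. Camp, of the neutrophil list, was at 0.898, 2.89 and 0 in oil and nearly level in tamoxifen, at 6.39, 6.06 and 5.46. Of 11 T cell genes, Cd3e, Cd8a, Cd8b1, Trbc1 and Cd5 were at 0, and the list's sum of 345 to 404 in oil and 424 to 878 in tamoxifen was nearly all Lat. Of 8 NK cell genes, 6 were at 0, and Nkg7 made nearly all of the sum of 58.9 to 160 in oil and 193 to 662 in tamoxifen. The 8 erythroid genes of the table were at 49624 to 69817 in oil and at 55029 to 86142 in tamoxifen. The part of any of these cells in the values of the antibody genes was not tested.

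By the correlation of log2 levels over the 6 libraries, the genes most like Igha among 12297 were Parp12 (Pearson's r = 0.97), Gm6548 (0.96), Qpctl (0.96), Cd300lg (0.95) and Msantd1 (0.95). Parp12, an interferon-induced ADP-ribosyltransferase, was at 391, 428 and 418 normalized counts in oil and at 606, 516 and 427 in tamoxifen, so it shared the order of the tamoxifen libraries over a far smaller range. Igkc came at rank 11 with r = 0.93 and Ighm at rank 4427 with r = 0.46. For Cd79b the most similar genes were Tbc1d4 (0.996), Rell2 (0.995), Mpp3 (0.99), Smarca2 (0.99) and Gbp2 (0.99), and Igkc stood at 0.66. Both rankings rest on 6 points that share the libraries and their depth. The one for Igha rests chiefly on the distance of tamoxifen 1 and tamoxifen 2 from the others. For Cd79b the oil points, at 2, 3 and 1 reads, were at or under the floor of 3 reads, so the order of its genes is uncertain. Of all genes ranked, 7 had r above 0.95 with Igha and 77 with Cd79b.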

How the data were processed

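RNA-seq was performed on sorted cells of 3 oil and 3 tamoxifen mice. The authors aligned reads with STAR to mm10 (the GRCm38 assembly) and deposited normalized counts, a signal equal to read counts divided by 1 size factor per library (DESeq2). The annotation and strand setting are not given in the sources used here, so antisense reads cannot be told apart. Whole reads were recovered from the step of each column (100% whole within 0.02). Of 55450 rows, 1832 without a gene name (0.0400% to 0.0614% of reads) were left out, and 1402 names split over columns were rejoined.

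Values were compared as log2(value + 1) with limma 3.58.1 (R 4.3.3, trend), over genes with 10 or more in at least 3 libraries, with Benjamini-Hochberg adjustment at 0.05. edgeR 4.0.16 and DESeq2 1.42.0 on recovered reads, other scalings, filters, pseudocounts of 0.5 and 5, correction for GC content (a loess curve of span 0.3 per library), a replicate block and each library left out were the alternatives. Fits were checked on simulated data, of which no result is given or used here. Gene places, exon lengths and GC content came from GENCODE vM21.

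Members and lists were chosen with earlier results of these data known. Named were the 9 members, the other constant genes, the most read segments, abundant or defining genes of the lists, the 5 genes most like Igha and Cd79b, Usp18 and Kit. 1 listed marker is not reported here.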

Additional observations from a re-analysis of the deposited data

How the results depend on the processing

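Over all genes, limma called 0 as fitted, DESeq2 on whole reads called 71 (69 higher and 2 lower in tamoxifen, of 15444 genes with an adjusted p), and GC correction gave 2. Leaving out each library in turn gave 0 to 41, the 41 without tamoxifen replicate 1. edgeR, TMM and upper quartile scaling, the other filters and pseudocounts gave 0. For the B lineage lists, 0 were called under each of these alternatives. The median log2 difference of all genes was -0.02 as fitted and 0.11 with DESeq2. Same-numbered libraries did not deviate together (correlations of -0.15 to 0.06), and the labels do not say whether the numbers pair the mice. With 3 libraries per group, and tamoxifen 1 standing apart, these correlations cannot settle whether the mice were paired. A replicate block gave 0 calls over all genes and 0 in the B lineage lists, with 426 in place of 550 genes at an unadjusted p under 0.05.

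Over 17 alternatives the log2 difference was 2.34 to 4.75 for Igha, on which the set was picked and of whose high libraries no alternative leaves out both. The range was 1.27 to 2.67 for Igkc, 0.53 to 1.93 for Jchain and 0.81 to 1.92 for Ighm. For Cd79b it was 0.99 (with a pseudocount of 5) to 2.30, and for Cd79a it lay on both sides of 0 (-0.38 to 0.71). The other filters and the replicate block cannot change the difference of a member, so not all 17 are separate checks. Igkc was high in the same libraries as Igha, so the sign of its difference is no check either. Members with fewer than 10 reads in a group are limited by depth, and Iglc1, Iglc2 and Mzb1 cannot be compared between the groups.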
